A study of Mus musculus with 8 samples.

Results

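Villi of the small intestine were compared between mice without cyclooxygenase in Gli1-expressing mesenchymal cells, called Gli1-PtgscKO, and Ctrl mice. All 12701 genes of the villus table were used, of 13028 genes listed for villi or crypts in the series. In Gli1-PtgscKO mice a tamoxifen-inducible Cre driven by Gli1 (Gli1-CreERT2) removes floxed Ptgs1 (COX1) and Ptgs2 (COX2), so the deletion reaches mesenchymal cells that express the driver and not the epithelium that was sequenced. The sample labels call the Ctrl genotype WT, their protocol names Gli1-CreERT2; Rosa26-tdTomato mice, and the study's text describes Ctrl as Ptgs1 flox/flox; Ptgs2 flox/flox without Cre. The Ctrl genotype is therefore not settled. All mice were on the C57BL/6 background, and epithelium was collected 1 month after tamoxifen. The age of these mice is not given in the sources used here.

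The table has 2 Gli1-PtgscKO villus columns, called KO 1 and KO 2 here, and 2 Ctrl columns. The Ctrl columns held identical values in all 12701 genes and were counted as 1 library. The comparison therefore rests on 3 distinct libraries, no p-value can be given, and the Ctrl value has no replicate check. A difference between genotypes and a difference between the Ctrl mouse and any other mouse cannot be told apart. Every difference from Ctrl in KO 1 shares this Ctrl library with the one in KO 2. The study names its 2 replicates biological, but whether they came from separate litters or days is not given in the sources used here.

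Cyclooxygenases turn arachidonic acid into prostaglandin H2, from which prostaglandin E2 and other prostaglandins are made. Prostaglandin E2 acts on neighbouring cells through its EP receptors, and in the intestine it is known for raising cAMP in epithelial cells, driving chloride and mucus secretion and supporting repair after injury. The villus epithelium that lies above these mesenchymal cells is mostly absorptive enterocytes, which are born in the crypts, take up food on the villus side and are shed at the tip. Enterocytes near the villus base are known for antimicrobial lectins and those near the tip for nucleotide breakdown. Intraepithelial lymphocytes sit between them, and plasma cells and macrophages lie in the tissue core below.

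The deleted gene Ptgs1 had 90.4 normalized counts in Ctrl, 50.5 in KO 1 and 92.7 in KO 2, so the Ctrl value lay between the KO values. Ptgs2 and the driver Gli1 were not among the listed genes. Since the deletion is not in epithelial cells, these levels do not check the labels. The villus label was checked against marker genes. Enterocyte genes stood far above crypt genes in all 3 libraries. Fabp2, an intestinal fatty acid carrier, had 160233 normalized counts in Ctrl, 97843 in KO 1 and 108991 in KO 2. Sis, the sucrase-isomaltase of the brush border, had 17266, 47879 and 24653 in the same order. Olfm4, a crypt stem cell gene, had 1697, 3056 and 2234, and the stem cell gene Lgr5 had 13.9, 64.2 and 30.9. Listed genes of the Y chromosome had reads in all 3 libraries.

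Normalized counts are gene counts divided by the DESeq2 size factor of the library. Reads on listed genes numbered 14587179 in Ctrl, 15751024 in KO 1 and 13477600 in KO 2, and genes of the mitochondrial genome took 22.7%, 19.3% and 26.3% of them. The smallest mean over the 4 columns was 8.82 normalized counts, so genes at very low levels are absent, and a gene high only in Ctrl, which counts double in that mean, is listed more readily than one high in a single KO library. A gene near 0 reads in Ctrl is in turn listed only through its KO values. Where low genes are given in reads, 1 read is worth 1.16 normalized counts in Ctrl, 0.765 in KO 1 and 0.966 in KO 2. Each difference given below is log2(normalized count + 1) in 1 KO library minus the same in Ctrl, which understates the difference of low genes. In bulk RNA, fewer cells of a type and less RNA per cell cannot be told apart.

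On this scale 5545 genes, 43.7% of the table, were above Ctrl in both KO libraries and 5611, 44.2%, were below Ctrl in both. The other 1545 genes were not on the same side in both. Over 2-fold above Ctrl in both were 1351 genes (10.6%), and over 2-fold below it in both were 813 genes (6.4%). Counts given for gene groups below are to be read beside these shares. Genes past 4-fold in both numbered 189 above Ctrl and 57 below. The spread between the KO libraries was measured over all genes. The median absolute log2 difference between KO 1 and KO 2 was 0.19 over all genes, which corresponds to an SD of 0.14 (n = 2), and 531 genes (4.18%) were over 2-fold apart between them. For the spread of Ctrl only the crypt pair could be used, whose median absolute log2 difference was also 0.19 over 11554 genes, with 4.30% of the genes over 2-fold apart. Between the 2 Gli1-PtgscKO crypt libraries it was wider, at 0.50, so replicates in this series can differ more than these pairs do.

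Another scaling moved the zero point. With libraries scaled to their total reads on listed genes in place of DESeq2 size factors, the median log2 difference over all genes was 0.48 in KO 1 and 0.37 in KO 2, against -0.01 in both as deposited. Then 2635 genes were past 2-fold above Ctrl in both and 164 below, against 1351 and 813. Medians of gene groups are therefore followed below by their value under that scaling, and a group whose median was within that shift of 0 has no settled direction.

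The differences followed transcript length in both KO libraries. Long transcripts were higher in Gli1-PtgscKO villi and short ones lower. Genes were split by length into 10 groups of equal size. In the shortest group, whose longest annotated transcript had 265 to 1285 bases, the median log2 difference was -0.83 in KO 1 and -0.74 in KO 2. In the longest group, of 6614 bases or more, it was 0.90 and 0.81. The shortest group held 340 of the genes past 2-fold lower, 26.8% of its genes, and 40 higher, whereas the longest group held 433 higher, 34.1% of its genes, and 2 lower. The median longest transcript was 5178.5 bases among genes past 2-fold higher, 1488 bases among those lower and 3265 bases among all 12692 genes with an annotated length. Across genes, which are not independent, Spearman's correlation of the difference with length was 0.54 in KO 1 and 0.51 in KO 2, with GC content -0.40 and -0.43, and with the Ctrl level -0.40 and -0.42. Between the 2 Ctrl crypt libraries the correlation with length was -0.18.

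**Figure D1:**
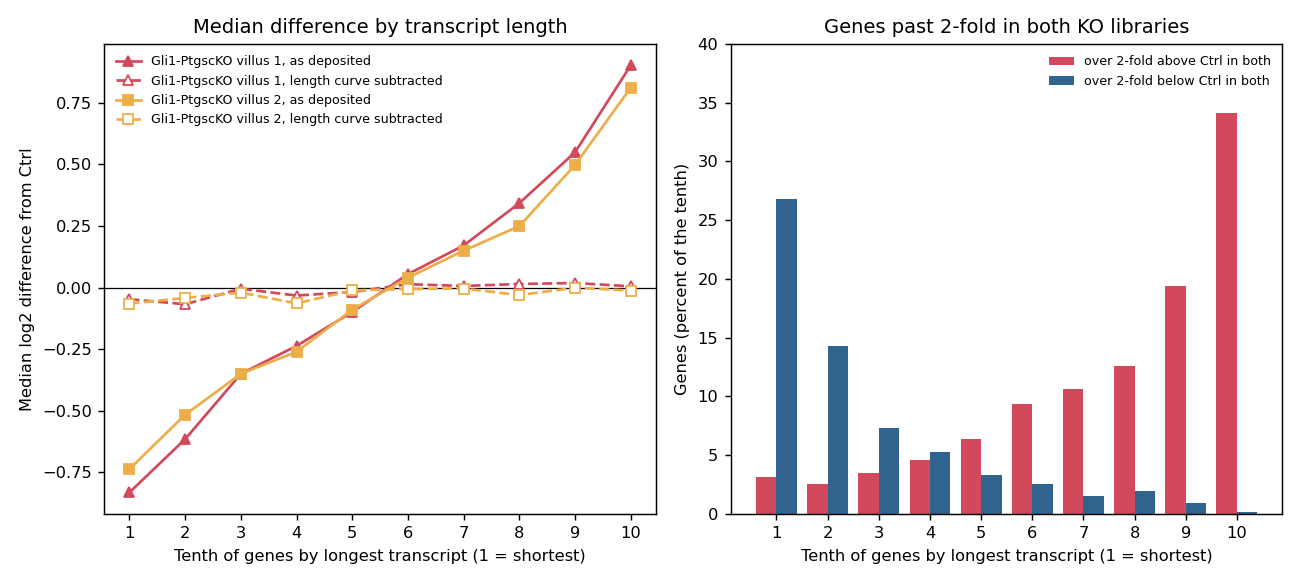
Left, median log2 difference from Ctrl (y axis) of genes in 10 groups by longest transcript (x axis, 1 = shortest), for KO 1 (triangles) and KO 2 (squares), as deposited (filled) and after the length curve was subtracted (open). Right, percent of genes (y axis, from 0) past 2-fold above or below Ctrl in both KO libraries, by length in the same way. Medians climb from -0.83 and -0.74 to 0.90 and 0.81, and genes past 2-fold lower make up 26.8% of the shortest group.

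Subtracting a smooth curve of the difference on length from each KO library gave length-corrected differences. After it 5224 genes (41.2%) were above Ctrl in both KO libraries, 5539 (43.6%) below, 869 (6.85%) past 2-fold above and 409 (3.22%) past 2-fold below. Of the genes past 2-fold as deposited, 692 of 1351 higher and 226 of 813 lower genes also passed 2-fold on the same side after correction, and 8 of the higher ones were below 0 in both. The cause of the length trend was not tested.

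The MHC class II genes were the gene group furthest below Ctrl among 55 lists with at least 5 listed members, which leave out the immunoglobulin variable segments, a list chosen after its values were seen. Class II molecules carry peptides from taken-up protein to CD4 T cells, and villus enterocytes make them beside dendritic cells, macrophages and B cells. All 8 listed members of 10 were past 2-fold lower in both KO libraries, beside 6.4% of all genes. Their median difference was -2.06 in KO 1 and -2.28 in KO 2, -1.56 and -1.79 after length correction, and -1.58 and -1.91 scaled to total reads. After length correction 7 of the 8 remained past 2-fold. The summed level was 26514 normalized counts in Ctrl, 6434 in KO 1 and 4921 in KO 2.

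Cd74, the invariant chain that guides class II molecules to the endosome, had 12383 normalized counts in Ctrl, 2843 in KO 1 and 1952 in KO 2. This put it 4.35-fold and 6.34-fold below Ctrl. H2-Ab1, the beta chain of the I-A molecule (chromosome 17, 34257689 to 34269419, GRCm38), had 6671, 1655 and 1311. Its partner H2-Aa, the alpha chain (34282744 to 34287823), had 2725, 714 and 577. Both chains were thus low in both KO libraries, by log2 differences of -2.01 and -2.35 for H2-Ab1 and -1.93 and -2.24 for H2-Aa. The beta chain H2-Eb1 of the I-E molecule had 3136, 823 and 739.8. The peptide loading chains followed the same order, H2-DMa with 809.7, 170.5 and 127, and H2-DMb1 with 509, 103 and 100.4. H2-DMb2 was weakly expressed, with 43 reads in Ctrl and 14 and 20 in the KO libraries. Ciita, the transactivator on which class II transcription depends, had 232, 115 and 95.6, a smaller difference of -1.01 and -1.27. Ciita has a transcript of 6007 bases, so its length-corrected differences were larger, at -1.59 and -1.79.

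Class II promoters are known for a Y box, whose core ATTGG is bound by NF-Y, next to the X box that recruits the complex on which Ciita acts. Some members are shown with the upstream stretch where this core lies, since the group was low together. Among RefSeq promoter windows of GRCm38.p6, the letters ATTGG or their reverse complement CCAAT were searched on both strands in the 80 bases from 110 to 31 bases upstream of the start. This stretch was chosen as where the core is known to lie. The letters were found in 4 of the 6 windows of class II genes, those of H2-Aa, H2-DMb1, H2-DMb2 and H2-Eb1, and in 16.5% of all 32817 windows. These 6 windows belong to 5 genes, and Cd74, H2-Ab1 and Ciita are not among them. Neither H2-DMa window held the letters in this stretch, and 1 of them had a match at -198 from the start. Over the wider 250 bases upstream, which were also searched, 33.8% of all windows held the letters. H2-Eb1 held 2 matches, ATTGG and, nearer the start, CCAAT. The match is a description of letters and not of binding. Capitals mark the match in these 3 stretches, each written 5′ to 3′ along the gene, at chr17:34287854-34287933 on the minus strand for H2-Aa and on the plus strand at chr17:34305757-34305836 for H2-Eb1 and chr17:34153081-34153160 for H2-DMb1.
H2-Aa: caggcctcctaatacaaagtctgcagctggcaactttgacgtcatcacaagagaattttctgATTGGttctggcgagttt
H2-Eb1: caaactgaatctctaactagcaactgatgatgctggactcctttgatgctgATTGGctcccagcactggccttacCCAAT
H2-DMb1: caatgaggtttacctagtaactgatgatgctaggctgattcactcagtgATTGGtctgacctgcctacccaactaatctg

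Class I presentation, by which all cells show peptides to CD8 T cells, was lower to a smaller degree. Of 18 listed members, 13 were lower in both KO libraries and 3 were past 2-fold lower, beside 44.2% and 6.4% of all genes. Medians of the list were -0.71 and -0.42, -0.28 and -0.30 after length correction, when 2 were past 2-fold, and -0.22 and -0.05 scaled to total reads. The 3 were immunoproteasome subunits, which cut proteins into peptides for class I. Psmb10 had 9650.5 normalized counts in Ctrl, 3165 in KO 1 and 3622 in KO 2. Psmb9 had 2739.6, 856 and 1152, and Psmb8 had 2316, 844 and 952. The heavy chain H2-K1 had 24807, 14292 and 14050.3, and the light chain B2m had 26662, 14392 and 16413, both lower and within 2-fold. Reads of the near-identical H2 class I genes may be split between copies, so single heavy chains are uncertain. Nlrc5, which drives class I transcription, was on the other side with 49.8, 84.1 and 109.

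Interferon response genes did not separate the groups, because the KO libraries differed from each other. The median of 32 listed genes was -1.01 in KO 1 and 0.36 in KO 2, and 14 of them were on opposite sides, and scaled to total reads the medians were -0.52 and 0.73, and after length correction -0.84 and 0.71. Irf7, a regulator induced by interferon, had 3943 normalized counts in Ctrl, 1343 in KO 1 and 3257 in KO 2. Past 2-fold lower in both were Irf8 with 3122, 1386 and 1559 and Igtp, a GTPase of cell-autonomous defence, with 1121, 321 and 455.

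Among the 12 listed antimicrobial genes of the villus base, the C-type lectins Reg3b and Reg3g were furthest below Ctrl by the smaller of the 2 differences. Reg3b, which is secreted into the lumen, had 161597 normalized counts in Ctrl, 25433 in KO 1 and 28464 in KO 2. It was the 5th most abundant gene of the Ctrl library and lay 6.35-fold and 5.68-fold lower in the KO libraries. Reg3g, which binds Gram-positive bacteria, had 46512, 10864 and 14177. Lypd8, which keeps flagellated bacteria off the epithelium, had 32706, 15021 and 14568. These were the 3 members past 2-fold lower of 12 listed, while 10 of the 12 were lower in both KO libraries, with medians of -0.71 and -0.81, or -0.22 and -0.43 scaled to total reads. After length correction 6 of the 12 were lower, 2 were higher, 2 were past 2-fold lower and the medians were -0.20 and -0.54. After length correction Reg3b was at -1.84 and -1.80 and Reg3g at -1.75 and -1.40, while Lypd8 was at -0.45 and -0.58. The other lectins were less far from Ctrl. Reg1 had 21639.7, 13511 and 9544 and Reg3a had 5513, 3265 and 2654. Saa1, an acute phase protein made by epithelium in contact with microbes, is not on this list and lay further below Ctrl. It had 594, 22.2 and 67.6, and was on 29 and 70 reads in the KO libraries. Its paralogue Saa3 had 951 normalized counts, 338 and 745. Reads shared among Reg3 or Saa copies would make these single levels uncertain.

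Immunoglobulin genes were far below Ctrl. Of 13 listed B and plasma cell genes, 11 were lower in both KO libraries and 6 past 2-fold, with medians of -1.41 and -0.97, -0.91 and -0.39 after length correction, when 3 were past 2-fold, and -0.94 and -0.60 scaled to total reads. The summed level of the list was 13047 normalized counts in Ctrl, 2311 in KO 1 and 3756 in KO 2, and no listed marker was at 0. Igha, the heavy chain of secreted IgA, had 5541, 1028 and 1685. Igkc, the kappa light chain, had 5063, 537 and 935. Jchain, which joins IgA dimers, had 1211, 220.2 and 364. Both the heavy and the light chain were thus low in both KO libraries, and the B cell receptor component Cd79a also was, with 91 reads in Ctrl, 22 in KO 1 and 46 in KO 2. Ighg2b, a heavy chain of IgG, had 993 normalized counts, 56.6 and 119.8.

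The variable segments of the antibody genes are a list chosen after their values were seen, and are favoured by the way the table lists genes, so their counts are a description. Of 74 listed segments, 72 were lower in both KO libraries, 65 past 2-fold and 44 after length correction, and their summed level was 5163 normalized counts in Ctrl, 487 in KO 1 and 976 in KO 2. Igkv6-23 had 395 reads in Ctrl, 12 in KO 1 and 17 in KO 2. Igkv1-110 had 272, 44 and 68 reads, and Igkv1-117 had 260, 51 and 57. A single Ctrl library sets these values, and sequence shared among segments makes each one uncertain.

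Myeloid cell genes were lower as well. Of 15 listed, 14 were lower in both KO libraries and 6 past 2-fold, with medians of -1.38 and -0.92. After length correction 3 were past 2-fold with medians of -1.05 and -0.66, and scaled to total reads 1 was, with -0.89 and -0.55. The list summed to 9392 normalized counts in Ctrl, 3846 in KO 1 and 4870 in KO 2, with no listed marker at 0. Csf1r, the growth factor receptor of macrophages, had 535, 205 and 254. The complement genes C1qa and C1qb, made by macrophages, had 604, 106 and 245, and 562, 112 and 247. Cd14, which binds bacterial lipopolysaccharide, had 471, 178 and 114, and Spi1, a transcription factor of the myeloid lineage, had 212, 52.8 and 70.5. The myeloid and B cell lists hold cells that also make class II molecules. Their part in the class II difference was not tested.

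Genes of intraepithelial T cells differed less, with medians of -0.49 and -0.09 over 22 listed genes, -0.12 and 0.14 after length correction and 0.00 and 0.28 scaled to total reads. The list summed to 19951 normalized counts in Ctrl, 11592 in KO 1 and 14853 in KO 2. Gzma, a protease of cytotoxic granules, had 8289, 3733 and 4767. Ccl5, a chemokine of T cells, had 3563, 1388 and 1974. Gzmb had 1705, 1359 and 1737, so its Ctrl value lay between the KO values. Ptprc, the pan-leukocyte phosphatase CD45, was the 1 member past 2-fold, and it was higher, with 200.4, 608 and 722.

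**Figure D2:**
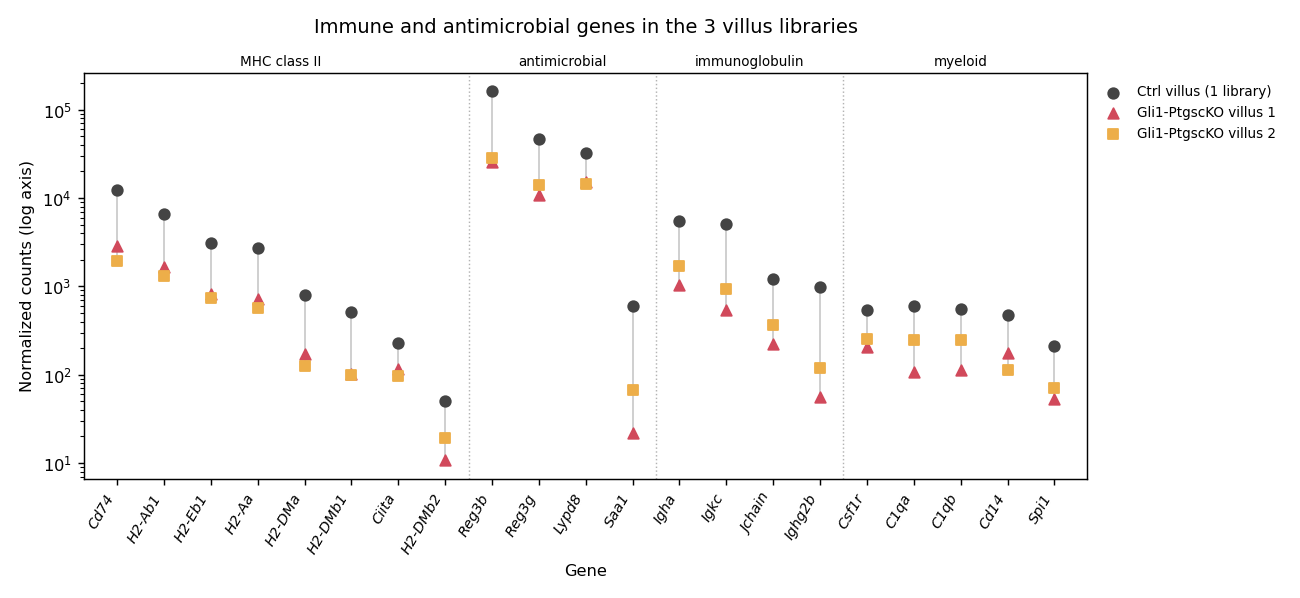
Normalized counts (log axis) of class II, antimicrobial, immunoglobulin and myeloid genes in the Ctrl villus library (circles), KO 1 (triangles) and KO 2 (squares), 1 library per point. The genes drawn were chosen among those past 2-fold lower in both KO libraries, so both KO points lie below the Ctrl point. An example is Reg3b with 161597 against 25433 and 28464. Members within 2-fold are not drawn. Scaled to total reads on listed genes, both KO points of every gene drawn also lie below Ctrl.

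On the higher side, the gene furthest from Ctrl encodes a splicing factor. The 10 leading higher genes by the smaller of the 2 differences, at a mean of at least 100 normalized counts, were Prpf39, Slc10a5, Rev3l, Rsrp1, Neat1, Sap25, Nipbl, Macf1, Prr14l and Mga. Prpf39, a component of the U1 snRNP at the splice donor, had 29.0 normalized counts in Ctrl, 256 in KO 1 and 208 in KO 2, or 8.58-fold and 6.96-fold higher. Rsrp1, an arginine and serine rich protein, had 602, 4059.9 and 3244. Neat1, the long noncoding RNA on which paraspeckles are built, had 686, 3646 and 3909.8. KO 1 and KO 2 were close to each other in all 3 genes. Their distance from Ctrl is not a separate result, since the genes were ranked by it.

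Slc10a5, a member of the bile acid carrier family, had 55.6, 350.2 and 334. Sap25, a subunit of a histone deacetylase complex, had 33.6, 182 and 191, and Nipbl, the loader of cohesin onto DNA, had 126, 658 and 705. Rev3l, the catalytic subunit of a lesion-bypass polymerase, had 33.6, 192 and 195. Macf1, a linker of microtubules to actin, had 68.3, 354 and 428, Mga, a transcriptional repressor, had 33.6, 173 and 208, and Prr14l had 38.2, 209 and 199. Of these 10, Macf1 and Neat1 had transcripts of 23495 and 20771 bases. Their length-corrected differences were 0.69 and 1.11 for Macf1 and 0.84 and 1.07 for Neat1.

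All 4 listed nuclear retained RNAs of 10 were higher in both KO libraries and 3 were past 2-fold, with medians of 1.56 and 1.51, 1.17 and 1.07 after length correction and 2.05 and 1.89 scaled to total reads. Malat1, an abundant RNA of nuclear speckles, had 1556 normalized counts in Ctrl, 5358 in KO 1 and 5145 in KO 2. Gas5, a host of small nucleolar RNAs, had 319, 668 and 583, and Snhg12 had 39.4, 102 and 98.5.

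Splicing factors were higher on average. Of 35, 29 were higher in both KO libraries and 13 past 2-fold, beside 10.6% of all genes, and 5 were lower in both. The medians were 0.91 and 0.88, 0.61 and 0.58 after length correction, when 10 of the 35 were past 2-fold, beside 6.85% of all genes, and 1.40 and 1.26 scaled to total reads. The kinases Clk1 and Clk4, which phosphorylate SR proteins, were among the furthest from Ctrl. Clk1 had 262 normalized counts in Ctrl, 1057 in KO 1 and 921 in KO 2, and Clk4 had 102, 387 and 336. Srrm2, a scaffold of nuclear speckles, had 588, 2381 and 2176. Pnisr, an arginine and serine rich nuclear protein, had 111, 512 and 441, and Rbm39, a splicing coactivator, had 722, 2154 and 2043. Luc7l2, a U1 snRNP protein, had 367, 1161 and 932. Among abundant members, the helicase Ddx5 had 3472, 7999 and 7857, while Hnrnpa2b1 and Hnrnpk were higher and within 2-fold, at 0.90 and 0.88 and at 0.47 and 0.40.

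Chromatin and transcription regulators with long genes were all higher, 20 of 20, with 12 past 2-fold and medians of 1.23 and 1.10, or 1.71 and 1.48 scaled to total reads. The median length of their transcripts was 11232 bases. After length correction their medians were 0.20 and 0.18 and none was past 2-fold. Kmt2a, a histone methyltransferase, had 93.8 normalized counts in Ctrl, 395 in KO 1 and 434 in KO 2, and its corrected differences were 0.66 and 0.91. Kmt2d had 219, 716 and 677 with corrected differences of 0.17 and 0.22. These regulators thus stood further above Ctrl than splicing factors as deposited, while after correction the splicing factors stood further from it.

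**Figure D3:**
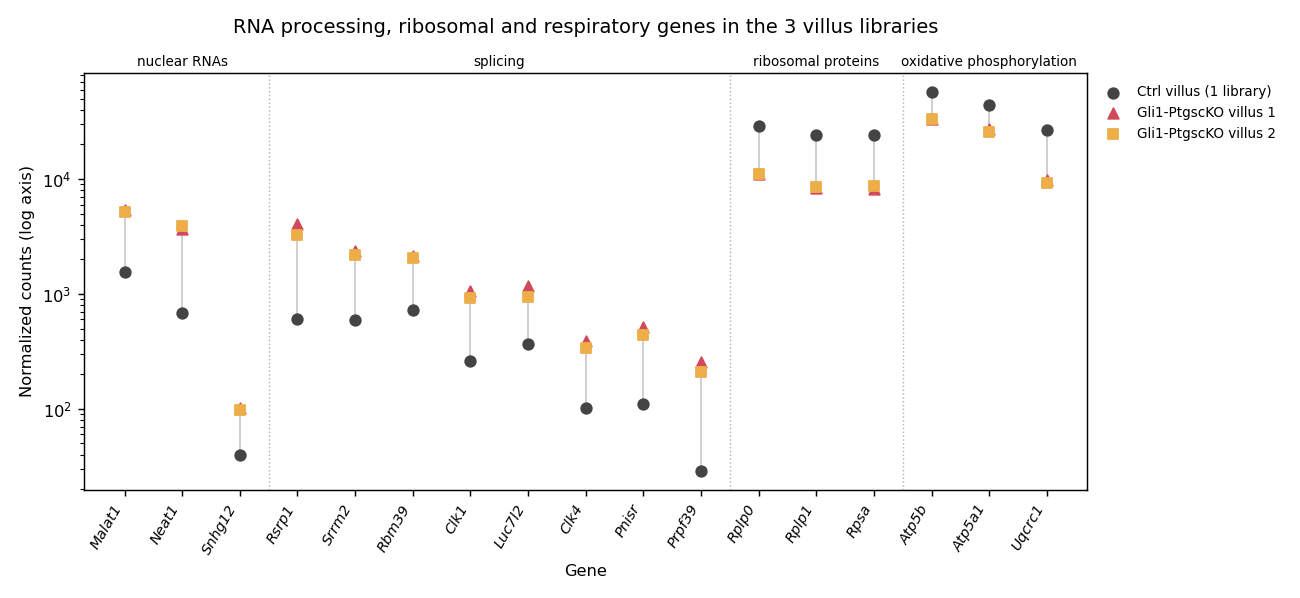
Normalized counts (log axis) of nuclear RNAs, splicing genes, ribosomal protein genes and nuclear genes of oxidative phosphorylation in Ctrl (circles), KO 1 (triangles) and KO 2 (squares), 1 library per point. The KO points lie above Ctrl in the first 2 groups and below it in the last 2, on either scaling, as for Prpf39 (29.0 against 256 and 208) and Rplp0 (29026 against 11017 and 11110.3). Genes drawn in the first 2 groups were chosen among those past 2-fold higher in both KO libraries.

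Ribosomal protein and nuclear respiratory chain genes, the longest lists drawn up, had the most genes lower in both KO libraries. Past 2-fold lower, the immunoglobulin variable segments had more, with 65. All 81 cytosolic ribosomal protein genes were lower in both KO libraries and 52 past 2-fold, beside 6.4% of all genes. Their medians were -1.16 and -1.12, or -0.67 and -0.74 scaled to total reads. Rplp0, an acidic protein of the ribosomal stalk, had 29026 normalized counts in Ctrl, 11017 in KO 1 and 11110.3 in KO 2. Rplp1 had 24113, 8273 and 8565, and Rpsa, of the small subunit, had 24089, 8211 and 8623. The median transcript of the list has 1106 bases, and after length correction the medians were -0.48 and -0.54, with 76 of 81 lower and 8 past 2-fold, beside 3.22% of all genes. Reads of processed pseudogenes could be shared with these genes.

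Nuclear genes of oxidative phosphorylation were at a like distance, with 84 of 90 lower and 41 past 2-fold. Medians were -1.02 and -1.0, -0.30 and -0.41 after length correction, when 7 were past 2-fold, and -0.53 and -0.63 scaled to total reads. Atp5b, the catalytic beta subunit of ATP synthase, had 57395 normalized counts in Ctrl, 33260.3 in KO 1 and 33273 in KO 2. Uqcrc1, a core protein of complex III, had 26504, 9825 and 9179 and was still at -1.20 and -1.31 after correction. Cox4i1, a subunit of complex IV, had 19958, 7895 and 8015, and its corrected differences were -0.51 and -0.60.

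Messages of the mitochondrial genome, by contrast, separated the KO libraries. Their median over 12 genes was -0.80 in KO 1 and -0.23 in KO 2, or -0.31 and 0.15 scaled to total reads. The most abundant, mt-Co1, was at -0.83 and -0.18. For mt-Cytb, the cytochrome of complex III, normalized counts were 504485, 394910 and 538026, so Ctrl lay between the KO values. mt-Nd1 was lower in both, with 492047, 258608 and 312798. For mt-Nd4, mt-Nd2 and mt-Nd5, other complex I subunits, the differences were -0.49 and -0.06, -0.47 and -0.04, and -0.14 and 0.53. Histone genes, mostly short, had 24 of 29 lower and 3 past 2-fold, with medians of -0.65 and -0.79, -0.19 and -0.30 after length correction and -0.16 and -0.41 scaled to total reads.

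After length correction the leading genes were partly others. The 10 leading higher genes were then Sap25, Prpf39, Rsrp1, Slc10a5, Gimap8, Zfp160, Upf3b, Nlrp9b, Uprt and Pdcd4, with 3 unnamed gene models skipped among them. Gimap8, a GTPase of lymphocytes, had 37.1 normalized counts in Ctrl, 169.7 in KO 1 and 182 in KO 2. Nlrp9b, a sensor of viral RNA in intestinal epithelium, had 62.6, 253 and 399. Upf3b, a factor of nonsense-mediated decay, had 41.7, 181 and 154. Pdcd4, an inhibitor of translation initiation, had 167, 567 and 534. All KO values of these 4 genes were above 3 times Ctrl, which follows from ranking them by their corrected distance from it. Zfp160, a zinc finger protein, had 32.4, 158 and 170.0, and Uprt, named for uracil salvage, had 44.0, 177 and 145.

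The 10 leading lower genes after correction were Igkv6-23 and another kappa variable segment, Saa1, Ighg2b, Gpx2, D10Wsu102e, Ocel1, Slc25a48, D1Ertd622e and Suds3. Gpx2, the glutathione peroxidase of gut epithelium, had 13116 normalized counts in Ctrl, 2402 in KO 1 and 2991 in KO 2, with corrected differences of -2.41 and -2.09. Slc25a48, a mitochondrial carrier, had 234, 61.2 and 38.6, and Ocel1 had 1522, 535 and 387. Suds3, a subunit of the Sin3 corepressor, had 3081, 1510 and 1538. D10Wsu102e and D1Ertd622e are on this list only through their annotated transcripts of 123179 and 40378 bases. As deposited, D10Wsu102e was higher, at 0.34 and 0.28, and D1Ertd622e was at -0.43 and -0.11.

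Ion transport genes included members well above Ctrl and others below it. Of 19 listed genes of chloride, bicarbonate and sodium transport, 9 were higher in both KO libraries and 6 lower, beside 43.7% and 44.2% of all genes. Past 2-fold were 3 higher and 1 lower, beside 10.6% and 6.4% of all genes. Medians of the list were 0.39 and -0.03, 0.44 and 0.29 after length correction and 0.87 and 0.35 scaled to total reads. After length correction 2 of the list were past 2-fold higher and none lower. Slc12a2, the basolateral carrier that loads cells with chloride, had 237 normalized counts in Ctrl, 787 in KO 1 and 691 in KO 2. Cftr, the apical channel through which chloride leaves, had 339, 1055 and 843, or 3.10-fold and 2.48-fold higher. Their longest transcripts have 6520 and 6410 bases, and their length-corrected differences were 1.07 and 0.94 for Slc12a2 and 0.99 and 0.73 for Cftr. Clca4a, a secreted regulator of chloride currents, had 93.8, 284 and 333 and kept 1.67 and 1.90 after correction. Its neighbour Clca4b had 4157, 8328 and 7878, and reads may be shared between these copies. Slc26a3, the chloride and bicarbonate exchanger, had 971, 2108 and 1670, and Slc4a4, the basolateral bicarbonate carrier, had 468, 1060.5 and 932. Car4, a membrane carbonic anhydrase, was the lower one with 2845, 1287 and 675.

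Villus tip genes lay on both sides of Ctrl. Of 18 listed genes 5 were past 2-fold higher, beside 10.6% of all genes. The 5 were Nt5e, Slc28a2, Enpp3, Clca4a and Ifrd1, and none of the list was past 2-fold lower. Medians were 0.02 and 0.22, 0.21 and 0.42 after length correction, when 4 were past 2-fold higher, and 0.51 and 0.60 scaled to total reads. Nt5e, which releases adenosine from AMP, had 61.4 normalized counts in Ctrl, 200.3 in KO 1 and 261 in KO 2. Slc28a2, which takes up purine nucleosides, had 213, 638 and 1011, and Enpp3, which splits extracellular nucleotides, had 755, 1713 and 2525. Slc17a4, a phosphate and urate carrier, had 328, 652 and 1118. After length correction Nt5e was at 1.54 and 1.93, Slc28a2 at 1.44 and 2.12, Enpp3 at 0.97 and 1.55 and Slc17a4 at 0.74 and 1.55. Ada, which breaks adenosine down, had 5196, 3626 and 6139, with Ctrl between the KO values. Abundant tip genes lay nearer Ctrl. Apoa4, an apolipoprotein, had 24851, 19309.9 and 17276, and Krt20 had 19869.7, 18647 and 20895.

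The carbohydrate enzymes of the brush border stood higher in KO 1 than in KO 2, with medians over 4 genes of 0.99 and 0.17, or 1.47 and 0.55 scaled to total reads. Mgam, the maltase-glucoamylase, had 9894 normalized counts in Ctrl, 38478 in KO 1 and 21764 in KO 2, and Sis had 17266, 47879 and 24653. Lct, the lactase, had 15058, 21290.2 and 13372. After length correction Mgam was at 1.31 and 0.55, Sis at 0.90 and 0.00 and Lct at -0.11 and -0.72. Of 12 listed peptidases, 5 were higher, 4 lower and 2 past 2-fold higher, with medians of 0.30 and -0.17, or 0.78 and 0.20 scaled to total reads. Tmprss15, the enteropeptidase that activates trypsin, had 144, 349 and 416 and kept 1.08 and 1.36 after correction, and Mme had 3225, 8853 and 6546. Anpep, the most abundant peptidase, had 64540.2, 55882 and 42049.6.

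The microvillus scaffold had 10 of 18 genes lower, with medians of -0.18 and -0.24 that turned to 0.31 and 0.14 scaled to total reads, while after length correction 15 were lower with medians of -0.43 and -0.46. Past 2-fold lower were Espn, an actin bundler, with 7913, 2703 and 3206 and Slc9a3r1, the scaffold that holds apical carriers, with 37679, 17917 and 18769. Espn was at -1.86 and -1.57 after length correction. Villin, Vil1, had 56095, 37093 and 38163. Keratins had 4 of 6 lower in both, with medians of -0.69 and -0.46, -0.36 and -0.25 after length correction and -0.20 and -0.08 scaled to total reads, led by Krt8 with 69748, 28165 and 31449 and Krt19 with 32372, 15209.6 and 13097.

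**Figure D4:**
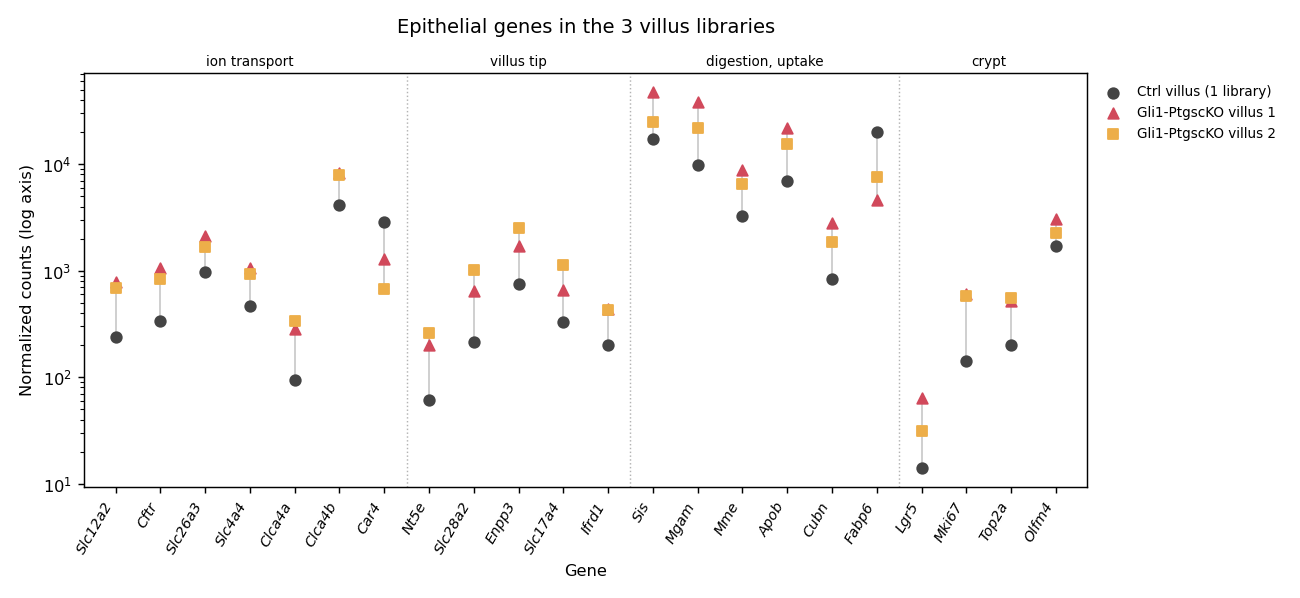
Normalized counts (log axis) of ion transport, villus tip, digestion and uptake, and crypt genes in Ctrl (circles), KO 1 (triangles) and KO 2 (squares), 1 library per point. Slc12a2 (237 against 787 and 691) and Nt5e (61.4 against 200.3 and 261) show KO points above Ctrl, Car4 (2845 against 1287 and 675) and Fabp6 below it.

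Fat absorption and chylomicron genes lay mostly within 2-fold of Ctrl. Of 23, 15 were lower in both KO libraries and 5 higher, with medians of -0.39 and -0.47, 0.11 and -0.13 after length correction and 0.10 and -0.10 scaled to total reads, so the group has no settled direction. Apoa1, the apolipoprotein of high-density lipoprotein, had 131683 normalized counts in Ctrl, 74067 in KO 1 and 74552 in KO 2. Fabp1 had 57924, 41492 and 41216. Apob, the protein backbone of chylomicrons, was the only member past 2-fold, with 7019.8, 22005 and 15373. Its transcript of 13934 bases brought the corrected differences to 0.37 and -0.04.

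Bile acid handling was lower in 6 of 7 listed genes, beside 44.2% of all genes, with medians of -0.75 and -0.67. After length correction 3 of the 7 were lower in both KO libraries, with medians of -0.38 and -0.01. Scaled to total reads 4 were, with medians of -0.27 and -0.29. Fabp6, the ileal bile acid carrier, had 19965 normalized counts in Ctrl, 4645 in KO 1 and 7501 in KO 2. Its transcript has 479 bases, and after correction it was at -1.10 and -0.57, no longer past 2-fold in both. The exporter genes Slc51a and Slc51b had 6011, 3564 and 3683, and 829, 466 and 495. Distal genes as a group, which share Fabp6, had medians of -0.68 and -0.69 over 12 genes, or -0.20 and -0.31 scaled to total reads, with 7 lower and 5 higher. Within them Pyy, a hormone of distal endocrine cells, had 1236, 515 and 571, while Cubn, the cobalamin receptor, had 826, 2814 and 1853. The 13 proximal genes had medians of 0.06 and 0.48, or 0.52 and 0.85 scaled to total reads. S100g, a calcium carrier of the duodenum, had 6018, 2827 and 8406, on opposite sides of Ctrl. The part of the gut that each library sampled was not tested.

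Iron and calcium genes had 8 of 13 higher and 4 lower, with 1 past 2-fold higher and 2 lower and medians of 0.11 and 0.43, or 0.57 and 0.81 scaled to total reads. The ferritin chains, which store iron, were lower. Fth1 had 95040.3 normalized counts in Ctrl, 47972 in KO 1 and 50507 in KO 2, and Ftl1 had 44702, 15921 and 21559.9. Hmox1, which frees iron from heme, had 118, 46.6 and 51.2. The calcium pump Atp2b1 was higher, with 445, 1291 and 1194. Sugar carriers and fructose enzymes had medians of 0.18 and -0.42 over 11 genes, or 0.67 and -0.05 scaled to total reads, and none past 2-fold. Peptide and amino acid carriers had medians of 0.32 and -0.16 over 15 genes, or 0.81 and 0.21 scaled to total reads, and 1 past 2-fold higher, Slc38a2 with 272, 689 and 585. Retinoid genes were within 2-fold in both KO libraries for the 9 listed, with medians of -0.23 and -0.46, or 0.26 and -0.08 scaled to total reads, and Rbp2 at 84712, 51998 and 46743.

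Crypt genes were also measured in the villus libraries. Of 13 stem cell genes, 9 were higher in both KO libraries and 3 past 2-fold, beside 43.7% and 10.6% of all genes. Their medians were 0.49 and 0.42, 0.34 and 0.41 after length correction, when none was past 2-fold, and 0.98 and 0.80 scaled to total reads. Lgr5, the Wnt receptor component of stem cells, had 12 reads in Ctrl, which allow 7.18 to 24.3 normalized counts (exact Poisson 95% interval for counting error only), 84 in KO 1 and 32 in KO 2. Slc12a2 is also on this list, as is Znrf3, a Wnt feedback gene, with 16, 63 and 52 reads. Smoc2 and Ascl2, other stem cell genes, were not higher in both. Smoc2 had 415 normalized counts, 333 and 251, and Ascl2 was at 0.11 and -0.51.

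Proliferation genes had 9 of 21 higher and 10 lower, with medians of 0.00 and -0.05, -0.18 and -0.10 after length correction and 0.49 and 0.33 scaled to total reads. Past 2-fold higher were 5, Mki67, Top2a, Kif11, Hells and Cenpe, and 3 of the list were after correction. Mki67, which coats mitotic chromosomes, had 142 normalized counts in Ctrl, 609 in KO 1 and 579.5 in KO 2, and kept 1.06 and 1.07 after length correction. Top2a, the topoisomerase of dividing cells, had 199, 521 and 555, and Cenpe, a kinetochore motor, had 11, 117 and 91 reads. Other genes of the same process did not follow. Pcna, the replication clamp, had 1019, 1095 and 1204, and Tubb5 had 1784, 901 and 999.7.

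Paneth cell genes, whose products are antimicrobial peptides of the crypt base, had 7 of 17 higher and 6 lower, with medians of 0.25 and -0.11. Lyz1, the Paneth lysozyme, had 2274 normalized counts in Ctrl, 4165 in KO 1 and 2539 in KO 2, and Defa24, a defensin, had 3182, 3717 and 2674. Their transcripts are short, with a median of 508 bases, and after length correction all 17 were above 0 in both KO libraries, with medians of 1.27 and 0.75, or 0.74 and 0.27 scaled to total reads without it. The direction of this group thus rests on the correction or the scaling. Defensin genes are near-identical copies, so single members are uncertain. Mptx1, a pentraxin of Paneth cells, was the only member past 2-fold as deposited, with 4 reads in Ctrl, 75 in KO 1 and 81 in KO 2, or exact Poisson 95% intervals of 1.26 to 11.9, 45.1 to 71.9 and 62.1 to 97.2 normalized counts.

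Tuft cells, which sense luminal contents and also make prostaglandins, had 8 of 16 listed genes higher and 2 lower. Past 2-fold were 4 higher and 1 lower, beside 10.6% and 6.4% of all genes. Medians were -0.01 and 0.68, or 0.48 and 1.04 scaled to total reads. After length correction 9 were higher and 1 lower, with medians of 0.04 and 0.78. Then 6 of the 16 were past 2-fold higher, beside 6.85% of all genes. KO 2 was above KO 1 in most of the better expressed members. Trpm5, their taste channel, had 202 normalized counts in Ctrl, 213 in KO 1 and 390.2 in KO 2, and Dclk1 had 70.7, 73.4 and 196. Genes past 2-fold higher as deposited were weakly expressed. Il17rb, the receptor for IL-25, had 8 reads in Ctrl, 62 in KO 1 and 50 in KO 2, and Pou2f3, the transcription factor that specifies tuft cells, had 9, 30 and 42. Alox5ap, of leukotriene synthesis, was past 2-fold lower with 39, 22 and 12 reads.

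Goblet cell genes, for mucus, had 7 of 15 lower and 3 higher, with medians of -0.28 and 0.08. After length correction 3 were lower and 8 higher, with medians of 0.04 and 0.28. Scaled to total reads 3 were lower and 10 higher, with medians of 0.20 and 0.46. The group thus has no settled direction. Muc2, the gel-forming mucin, had 5708 normalized counts in Ctrl, 4691 in KO 1 and 7710.4 in KO 2, so Ctrl lay between the KO values. Zg16, a lectin of mucus, had 34823, 15206 and 25878, and Tff3, a trefoil peptide, had 22817, 9481 and 15135, each lowest in KO 1. Spink4 was the 1 member past 2-fold lower, and Sytl2 was the 1 member past 2-fold higher. Spink4 had 3535, 1496 and 1705, and with its transcript of 397 bases was at -0.18 and -0.16 after length correction. Enteroendocrine genes had medians of 0.08 and -0.22 over 17 genes, or 0.57 and 0.15 scaled to total reads, with Gip at 6442, 4665 and 5607 and Sct at 5514, 3117 and 2829.

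Gastric genes, which the study follows in crypts, were few and low in villi. Of 7, 5 were listed and all 5 were higher in both KO libraries, 3 past 2-fold, beside 43.7% and 10.6% of all genes. Medians were 2.45 and 1.19, or 2.93 and 1.55 scaled to total reads. A gene at 0 reads in Ctrl, such as Muc5ac, is listed only through its KO values and could not appear here as lower. The count of 5 is therefore a description and in part set by the listing. Muc5ac, the mucin of the stomach surface, had 0 reads in Ctrl, 43 in KO 1 and 15 in KO 2, which puts it at least 9.46-fold and 4.17-fold above the 3.48 normalized counts that 3 reads make in Ctrl. Gkn1 and Gkn2, gastrokines of the same cells, had 19, 163 and 45 reads and 20, 177 and 56 reads. Tff2, a trefoil peptide of mucous neck cells, had 9, 42 and 33 reads, and Pgc, a pepsinogen, had 16, 57 and 20. KO 1 stood above KO 2 in all 5, and for Pgc the Poisson intervals of Ctrl (10.6 to 30.1) and KO 2 (11.8 to 29.8) overlapped. Anxa10 and Gast were not listed.

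Prostaglandin genes were mixed. Their list of 19 holds the deleted pair, of which Ptgs1 was listed and Ptgs2 was not. Of 14 listed of 19, 8 were higher and 5 lower in both KO libraries, with 3 and 2 past 2-fold and medians of 0.21 and 0.14, or 0.70 and 0.52 scaled to total reads. On the synthesis side, Pla2g4a, the phospholipase that frees arachidonic acid, had 16 reads in Ctrl, 74 in KO 1 and 64 in KO 2. Ptges2, a prostaglandin E synthase, had 2096 normalized counts, 761 and 694 and was at -1.85 and -1.94 after length correction. Ptges, the inducible synthase, had 28, 10 and 12 reads, while Ptges3 had 697, 748 and 745 normalized counts. Hpgds, which makes prostaglandin D2, had 14, 49 and 43 reads.

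For export and breakdown, Abcc4, an exporter, had 8, 28 and 23 reads, Slco2a1, the uptake carrier, had 531, 666 and 607 normalized counts, and Hpgd, the enzyme that inactivates prostaglandin E2, had 4037, 5461 and 5697. Of the prostaglandin E2 receptors only Ptger4 was listed, with 132, 179.7 and 208, within 2-fold of Ctrl. Downstream genes of cAMP signalling were higher in 11 of 15, with 5 past 2-fold, beside 43.7% and 10.6% of all genes. Medians of the 15 were 0.43 and 0.68, 0.11 and 0.39 after length correction and 0.92 and 1.05 scaled to total reads. Adcy6, an adenylyl cyclase, had 497, 1304 and 1053, and Pde3b, which breaks cAMP down, had 41.7, 108 and 121. None of the 15 was past 2-fold after length correction. The catalytic subunit Prkaca was lower, with 1448, 967 and 891.

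Notch pathway genes were higher in 10 of 15, with 4 past 2-fold, beside 43.7% and 10.6% of all genes. Medians of the 15 were 0.71 and 0.44, 0.43 and 0.14 after length correction, when 1 was past 2-fold, and 1.19 and 0.81 scaled to total reads. Dll1, a ligand made by secretory precursors, had 158 normalized counts in Ctrl, 416 in KO 1 and 328 in KO 2, and Notch1, a receptor, had 34.8, 135 and 124. The target Hes1 had 249, 227 and 243. BMP and hedgehog genes had medians of 0.26 and 0.05 over 19 genes, or 0.74 and 0.42 scaled to total reads, with the BMP targets Id1 at 1765, 1136 and 1229.5 and Id3 at 2287, 1203 and 1356. Ptch1, the hedgehog receptor, had 29, 111 and 71 reads and a transcript of 10383 bases. Yap and regeneration genes had medians of -0.37 and -0.26 over 11 genes and none past 2-fold, and scaled to total reads both were 0.11.

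Other cells of the tissue left little RNA. Of 19 mesenchymal genes 14 were listed, without Pdgfra and Foxl1, with medians of -0.16 and -0.39, -0.33 and -0.63 after length correction and 0.33 and -0.01 scaled to total reads. They summed to 3920 normalized counts in Ctrl, 3823 in KO 1 and 3279 in KO 2. Of the 14, 3 were higher in both KO libraries and 7 lower, beside 43.7% and 44.2% of all genes. After length correction 1 was higher and 10 were lower. Acta2 was the 1 member past 2-fold, and it was lower. Among the 3 higher ones, Dcn, a matrix proteoglycan, had 232, 241 and 399.9, and Col3a1 had 558, 807 and 612. The 4 listed of 9 endothelial genes summed to 117, 79.5 and 116.9, and 1 of 9 neuron and glia genes was listed. Red blood cell genes separated the KO libraries, with sums of 10595 in Ctrl, 4029 in KO 1 and 9716 in KO 2, as did 5 pancreatic acinar genes with 292, 91.0 and 303.

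Drug metabolism genes had single members far above Ctrl. Abcb1a, the P-glycoprotein exporter of the apical membrane, had 749 normalized counts in Ctrl, 4153 in KO 1 and 2710.2 in KO 2, or 5.54-fold and 3.61-fold higher, and kept 2.08 and 1.51 after length correction. Cyp3a11, the main drug oxidase of mouse gut, had 2969, 7111 and 11779, and Cyp3a25 had 2229, 4844 and 4789. Both kept over 1.4 after correction. Abcc2, an exporter of conjugates, had 1557, 5315 and 3706. The groups as a whole stayed near Ctrl, with medians of 0.05 and -0.24 over 27 oxidation genes and 0.07 and 0.06 over 24 conjugation and export genes, or 0.53 and 0.13 and 0.56 and 0.43 scaled to total reads. Reads of near-identical Cyp3a genes may be shared.

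Antioxidant genes were lower in 15 of 27, with 5 past 2-fold and medians of -0.51 and -0.35, -0.26 and -0.17 after length correction and -0.02 and 0.03 scaled to total reads. Beside Gpx2, the peroxidases Gpx4 with 20632, 6935 and 7616 normalized counts and Gpx1 with 12268, 4864 and 4321 were past 2-fold lower, as was Prdx5 with 13531, 5029 and 6218. Only Gpx2 remained past 2-fold after length correction. Genes of the endoplasmic reticulum had medians of 0.00 and -0.31 over 24 genes, or 0.49 and 0.07 scaled to total reads, with Asns, an amino acid stress gene, at 446, 171 and 171 and Trib3 at 622, 266 and 253.

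Among metabolic lists, fatty acid oxidation had 16 of 27 lower and medians of -0.22 and -0.14, which turned to 0.27 and 0.23 scaled to total reads, and Pdk4, the brake on pyruvate use, was its 1 member past 2-fold higher with 86.9, 342 and 198. Acads and Etfb, of the first steps of that pathway, were past 2-fold lower, Acads with 3254, 1378 and 1516 and Etfb with 4731, 2013 and 2196. Cholesterol synthesis had medians of -0.07 and -0.22 over 22 genes, or 0.42 and 0.16 scaled to total reads, with Idi1 past 2-fold higher at 82.2, 212 and 278. Clock genes had medians of 0.19 and -0.01 over 19 genes, or 0.68 and 0.37 scaled to total reads. The repressors Per2 and Per3 were past 2-fold higher, Per2 with 66.0, 317 and 248 and Per3 with 45.2, 204 and 116, while Nr1d1 had 1999, 1163 and 1161. The hour of collection is not given in the sources used here. Immediate early genes had medians of 0.22 and 0.05 over 21 genes, or 0.71 and 0.42 scaled to total reads, with Fosb past 2-fold higher on 95, 634 and 238 reads and Jund past 2-fold lower at 1581, 610.1 and 638 normalized counts. Intestinal transcription factors were all within 2-fold, 24 of 24, with medians of -0.27 and -0.18 that turned to 0.22 and 0.20 scaled to total reads, and Hnf4a had 10219, 7646 and 8544.

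Over the 55 lists, without the immunoglobulin variable segments, both KO medians were above 0 in 15 and below 0 in 27 as deposited, and in 16 and 21 after length correction. Scaled to total reads they were above 0 in 34 and below in 12.

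**Figure D5:**
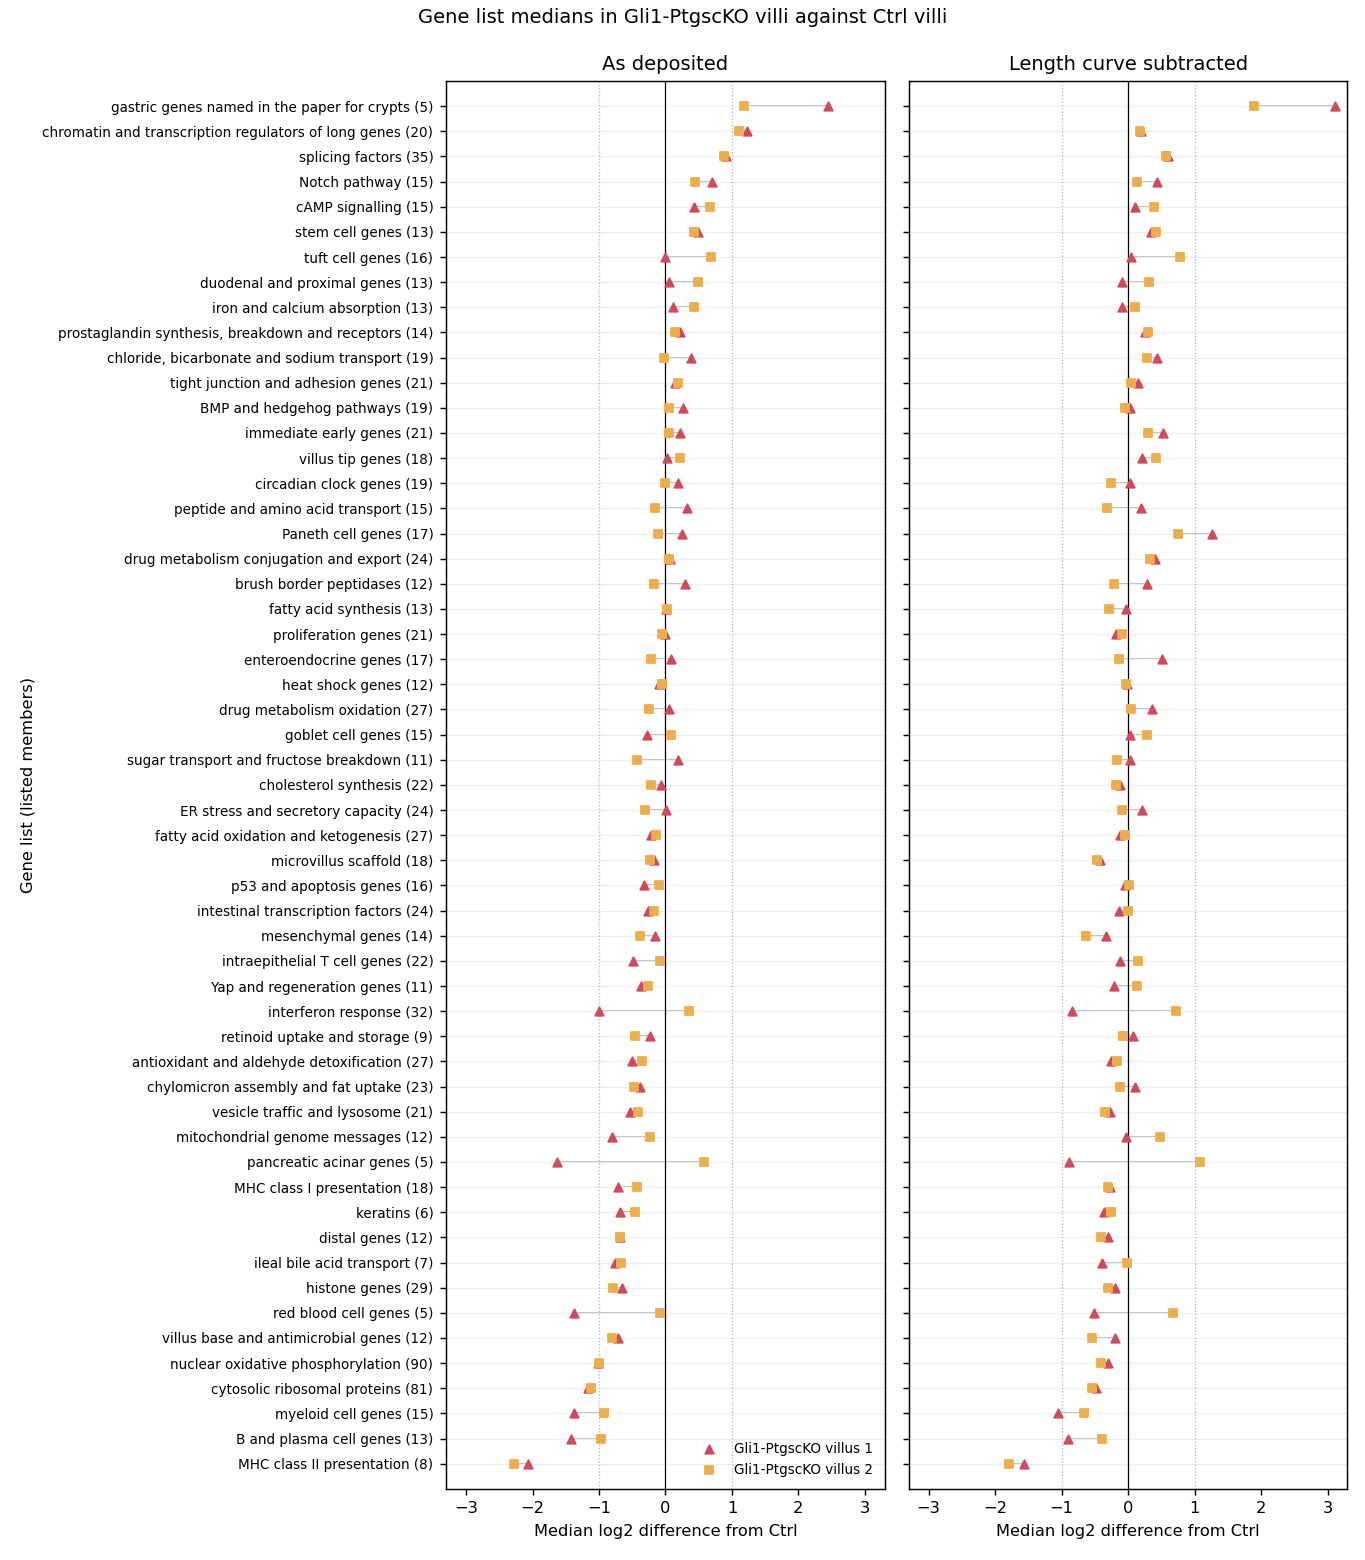
Median log2 difference from Ctrl (x axis) of the 55 gene lists with at least 5 listed members, without the immunoglobulin variable segments (y axis, number of members in brackets) in KO 1 (triangles) and KO 2 (squares), as deposited on the left and after the length curve was subtracted on the right. Among the lists drawn, MHC class II stands lowest in both panels at -2.06 and -2.28, then -1.56 and -1.79, and also when scaled to total reads (-1.58 and -1.91), while ribosomal proteins move from -1.16 and -1.12 to -0.48 and -0.54 and long-gene regulators from 1.23 and 1.10 to 0.20 and 0.18.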

How the data were processed

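RNA-seq of villus epithelium was analysed from 2 Gli1-PtgscKO columns and 2 identical Ctrl columns, taken as 1 library. Per the submitters' processing notes the tools named are STAR and DESeq2 and the build is mm10. The authors deposited a signal for each gene, which is its count after division by a DESeq2 size factor. The table also holds the authors' own fold changes, standard errors and p-values, which were not used. How reads were counted, with or without strand, and on which annotation are not given in the sources used here, so overlapping and antisense genes are uncertain. The labels and the study's methods name different RNA and library kits. Columns of unmapped samples were 0.

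From the smallest steps between values, 100% of them were whole reads (tolerance 0.05 reads). With 1 distinct Ctrl library the DESeq2 comparison of the study's methods could not be followed, and no count test was run. Differences are log2(value + 1) per Gli1-PtgscKO library minus Ctrl, and past 2-fold means beyond 1 or -1 in both. Genes were matched by identifier to GENCODE M21 (12692 matched, 9 not), and a lowess curve with a span of 0.3 on log2 longest transcript was subtracted from each library. The gene lists and tests, and the comparison itself, were chosen with earlier results of these data known, and the immunoglobulin segment list after its values were seen. Lists share some genes. The step was tested on simulated data.

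Named genes were the 10 higher and 10 lower with the largest smaller difference at a mean of at least 100, before and after length correction, leaving out gene models; list members past 2-fold and the 3 most abundant per list, of which the text gives a part; the deleted genes, driver, prostaglandin E2 receptors, Cftr, Muc2 and 7 gastric genes; and the 10 most abundant genes. Genes named beside these (such as Saa3, Hes1, Pcna, Ada, Nlrc5 and Reg1) are list members named after their values were seen. Alternatives were total-read scaling, median-of-ratios factors, a pseudocount of 10, a mean of at least 50, length and GC curves, union exon length and leaving out each library. Python 3.11.15, pandas 2.3.3, numpy 2.4.6, scipy 1.17.1, statsmodels 0.14.6 and matplotlib 3.10.9 were used. Intervals cover counting error only.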

Additional observations from a re-analysis of the deposited data

How the results depend on the processing

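No paired analysis was possible because Ctrl is 1 distinct library and the results come from no test. Counts past 2-fold in both Gli1-PtgscKO libraries were 1351 higher and 813 lower. Scaled to total reads they were 2635 and 164, with 3081 in place of 5611 genes below Ctrl in both and with 34 lists above 0 and 12 below in place of 15 and 27. With a mean of at least 50 normalized counts, which tests fewer genes, 886 were higher. After the length curve they were 869 and 409, and after length and GC curves 707 and 401. Without 1 Gli1-PtgscKO library, where a gene need pass in the other alone, 1698 to 1810 were higher, 1145 to 1382 lower (1382 without KO 2), and 19 to 24 lists were above 0 (24 without KO 2). Median-of-ratios factors kept 1348 of the higher and 812 of the lower genes. The length correlation of 0.54 in KO 1 was 0.52 with union exon length and 0.61 at a mean of at least 50, where that of KO 2 was 0.57. The mean over both libraries turned below 0 under the length and GC curves for Apob (-0.12), Onecut2 (-0.28), Creb1 (-0.039), Hnrnpu (-0.084), Huwe1 (-0.052), Med13 (-0.028) and Nsd1 (-0.25, or -0.10 under length alone), and above 0 for Rpl36 (0.079), Atp5k (0.053), Cox6a1 (0.14) and Cox8a (0.095). What moved with length and GC in these libraries was not tested. Genes under about 50 normalized counts rest on few reads, and 3 reads, the limit used here for a gene at 0 reads, make 3.48 normalized counts in Ctrl.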
